A study of Mus musculus with 43 samples.

Results

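The response to high oxygen shared by 4 mononuclear phagocyte populations of the newborn mouse lung was taken from all 43 of the 43 libraries of the study. Its measure is a contrast: the mean over the 4 populations of the difference between hyperoxia and normoxia, with each population given the same weight and litter as a block. The hyperoxic pups were newborn C57BL/6 mice kept at a fraction of inspired oxygen of 0.9 for 1.5 days, and the normoxic pups were controls of the same litters and age. No genotype other than the strain is given. The lungs of both were digested and sorted by flow cytometry. Gates on MHC class II and CD11c gave the dendritic cells (DC), gates on Siglec-F and CD11c the alveolar macrophages (AM), and gates on Ly6C the cells called Ly6Chi, which were low in CD11c, and Ly6Clo, which were high in it. Hyperoxia is represented by 20 libraries, 5 in each population, and normoxia by 23 libraries, 6 in each population except for 5 in Ly6Clo. Litters 93, 100 and 108 each gave libraries of both conditions in every population, but litter 100 gave only 1 hyperoxic library to each.

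High oxygen raises the formation of reactive oxygen species in the lung. Cells answer oxidants through NRF2, a transcription factor that is released from KEAP1 and turns on genes of glutathione, thioredoxin, NADPH and heme metabolism, and they answer DNA damage through p53, whose targets halt the cell cycle. The HIF factors are stabilised when oxygen is low and degraded when it is plentiful. Mononuclear phagocytes take up dying cells and surfactant lipid, handle iron in their lysosomes, and turn to interferon and NF-kB programs when they meet inflammatory signals.

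Siglecf was highest in AM, Ly6c2 was higher in Ly6Chi than in Ly6Clo, and MHC class II genes as a list were highest in DC. Broader marker lists were in part shared between populations. Siglecf, which encodes Siglec-F, averaged 86.4 ± 14.7 CPM (counts per 1000000, scaled by TMM) in hyperoxic AM and 131 ± 33.01 CPM in normoxic AM (SD, n = 5 and 6), while the highest mean of any other population was 10.9 CPM in hyperoxia and 19.8 CPM in normoxia. H2-Ab1, an MHC class II gene, averaged 1185 ± 225 CPM in hyperoxic DC and 1188 ± 257 CPM in normoxic DC. The mean level of 11 MHC class II genes in normoxia was 8.47 log2 CPM in DC, 5.37 in AM, 5.58 in Ly6Chi and 5.80 in Ly6Clo. In hyperoxia it was 8.41, 5.73, 6.18 and 5.28 log2 CPM in the same order. Ly6c2, which encodes Ly6C, averaged 534 ± 227 CPM in hyperoxic and 421 ± 71.9 CPM in normoxic Ly6Chi cells, against 8.58 ± 3.69 CPM in hyperoxic and 19.1 ± 6.15 CPM in normoxic Ly6Clo cells. Neither Siglecf, H2-Ab1 and Ly6c2 nor Itgax, which encodes CD11c, was called in the averaged contrast (adjusted p = 0.314, 0.49, 0.557 and 0.132, edgeR quasi-likelihood F test). Levels of Itgax by population are not shown here. In normoxia the summed level of 21 alveolar macrophage markers had a median of 9379.3 CPM in AM and 5802.7 CPM in Ly6Clo. It was 1756.6 CPM in DC and 1322.2 CPM in Ly6Chi. For 17 neutrophil markers it was 3101.2 CPM in Ly6Chi, against 325.12 to 693.98 CPM in the other populations. For 12 B cell markers it was 1544.8 CPM in DC, against 139.16 to 552.02 CPM in the others. In sorted bulk samples, fewer cells of a type and less RNA per cell cannot be told apart.

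Total counts ran from 551960 to 2373600 in hyperoxic libraries (median 1561117.5) and from 570769 to 2403861 in normoxic libraries (median 1574479). Genes detected ran from 13306 to 16617 in hyperoxia (median 14765) and from 13599 to 16369 in normoxia (median 15166). The hyperoxic library of litter 100 was the shallowest hyperoxic library of its population in all 4 populations, with 1309747 counts in DC, 551960 in AM, 1026528 in Ly6Chi and 647844 in Ly6Clo, and it also had the fewest genes detected of the 5. No label ties a library to 1 pup. The mean level of 4 Y-linked genes was 5.58 to 6.49 log2 CPM in the hyperoxic libraries numbered 2, 3 and 4 of every population and −0.64 to −0.23 log2 CPM in those numbered 1 and 5. Of the normoxic libraries, those numbered 1, 3 and 4 had 5.38 to 6.35 log2 CPM and those numbered 2, 5 and 6 had −0.64 to 0.70 log2 CPM. Libraries of different populations may thus share an animal, which the model does not account for, and p-values measure the spread between libraries.

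Averaged over the 4 populations, the called genes were more often higher than lower in hyperoxia. Over all genes tested, 5345 had a positive and 7184 a negative averaged log2 fold change. Of 12529 genes tested, 378 (3.02%) were called at an adjusted p under 0.05 (edgeR quasi-likelihood F test, Benjamini-Hochberg over all genes tested): 293 (2.34%) were higher in hyperoxia and 85 (0.678%) lower. Most changes were modest, with a median log2 fold change of 0.47 among the genes called higher and −0.58 among those called lower, beside −0.038 over all genes tested. Limma voom called 221 genes (1.76%) and DESeq2 708 (5.65%), of which 203 and 373 were among the 378. Changes of over 1 on the log2 scale were found in 64 of the higher and 18 of the lower genes. The sign was the same in all 4 populations for 263 of the 293 higher genes and 71 of the 85 lower genes, while 26.6% of all genes tested had 1 sign throughout (12.8% higher and 13.8% lower). Called genes were picked on the mean of those 4 effects, so sharing 1 sign is partly built in. The comparison is no test of a shared response.

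**Figure D1:**
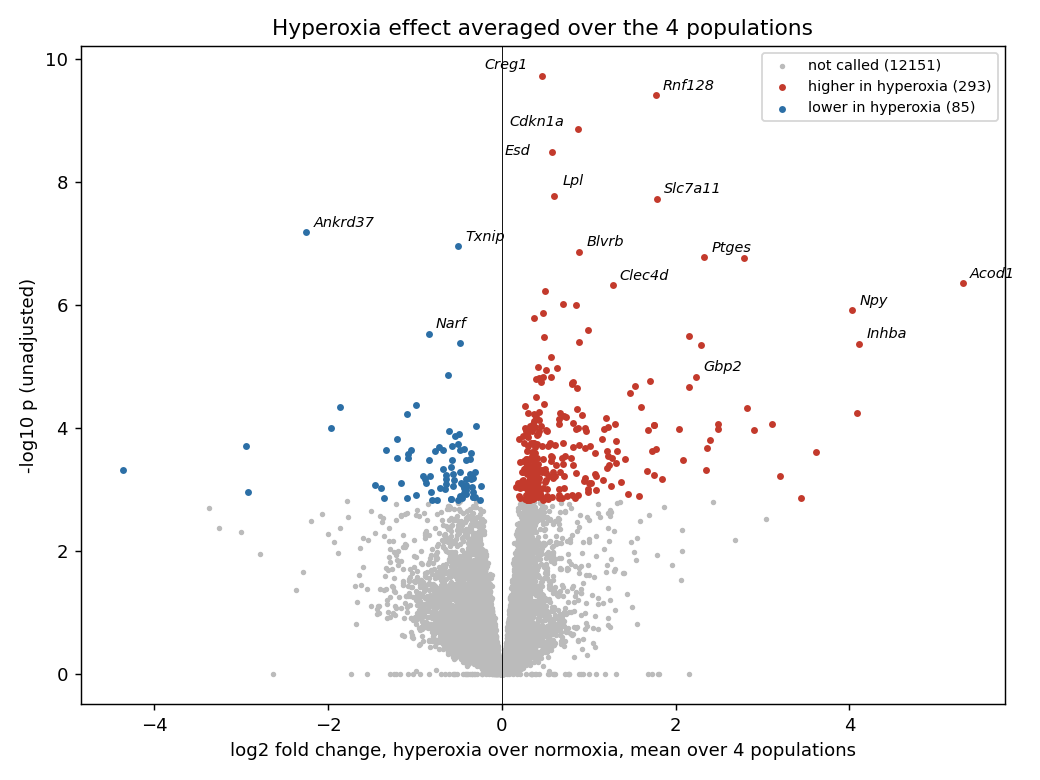
Each point is 1 of 12529 genes, with the log2 fold change of hyperoxia over normoxia averaged over the 4 populations on the x axis and −log10 of the unadjusted p on the y axis. Red points are the 293 genes called higher and blue points the 85 called lower; Creg1 has the smallest p, and Acod1 lies farthest to the right of the genes named.

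Among the called genes the effects were not of the same size in each population. Called genes had their largest effect in AM in 159 of 378 cases, in Ly6Clo in 108, in Ly6Chi in 69 and in DC in 42. The same count over all genes tested was not made. Hyperoxic AM had the lowest median total of the 8 groups (849561 counts), and the part of depth in this ranking was not tested. The median effect of the 293 higher genes was 0.35 in DC, 0.55 in AM, 0.39 in Ly6Chi and 0.53 in Ly6Clo, and that of the 85 lower genes was −0.35, −0.80, −0.34 and −0.77 in the same order. Within single populations of the same fit few genes passed: 18 higher (0.144%) and 9 lower (0.0718%) in AM, 1 higher (0.00798%) and 2 lower (0.016%) in Ly6Clo, and 0 higher and 1 lower (0.00798%) in Ly6Chi. In DC 0 genes passed the edgeR test, with 488 at an unadjusted p under 0.05, and limma voom called 3. A test of the difference in effect between the 4 populations called 0 genes by edgeR (617 at an unadjusted p under 0.05, smallest adjusted p = 0.0949) and 4 by limma voom.

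The litters contributed unequally to the average. The hyperoxia effect differed between the litters for 749 of 12529 genes (5.98%) and for 145 of the 378 called genes, of which 139 were higher and 6 lower in hyperoxia. Without litter 100 the averaged contrast called 20 genes (0.156%), 17 of them among the 378, and without only its 4 hyperoxic libraries it called 13 (0.102%). Without litter 93 it called 382 genes (3%), 205 of them shared, and without litter 108 it called 451 (3.59%), 193 of them shared. Leaving out the hyperoxic litter 100 library (replicate 3) of DC, AM, Ly6Chi or Ly6Clo alone left 161, 302, 162 and 215 calls. With the number of genes detected as a covariate 12 genes were called (0.0958%), and without the 5 libraries under 1000000 counts 104 (0.766%). When each litter within a condition was a random effect in limma voom, 17 genes (0.136%) were called. The part of depth and of genes detected in these differences was not tested.

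A core of 8 genes was called in each of the 43 fits that left out 1 library, without each of the 3 litters and without each of the 4 populations. It was picked after its values were seen. A fit without 1 library keeps the other libraries that may come from the same animal. Holding in all 43 such fits, here and below, thus does not show stability over animals. Without DC 73 of all genes tested were called (0.612%), without AM 41 (0.33%), without Ly6Chi 214 (1.79%) and without Ly6Clo 63 (0.509%). For 262 of all genes tested (2.09%) the hyperoxic and normoxic libraries did not overlap in at least 1 population, and for 0 in 3 or more. Creg1, Rnf128, Cdkn1a, Esd, Lpl and Blvrb were higher in hyperoxia, and Ankrd37 and Txnip were lower. The same 8 were among the 17 genes that passed with litter within condition as a random effect. Hyperoxic values are listed in the order of 2 libraries of litter 93, 1 of litter 100 and 2 of litter 108.

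Creg1 (ENSMUSG00000040713), which encodes a secreted and lysosomal glycoprotein, had the smallest p. It was at 915, 975, 936, 749.9 and 954 CPM in hyperoxic AM, against 487 to 572 CPM (median 529) in normoxic AM. In Ly6Clo it was at 632, 772, 636, 687 and 934 CPM in hyperoxia, against 452, 449.9, 542, 536 and 608 CPM in normoxia. The conditions did not overlap in AM and Ly6Clo. In DC it was at 375, 437, 568, 453 and 579 CPM in hyperoxia, against 320.3 to 438 CPM (median 374) in normoxia, and in Ly6Chi at 482, 497, 529, 441 and 578 CPM in hyperoxia, against 364 to 511 CPM (median 446) in normoxia, where the groups overlapped. Its log2 fold change averaged 0.47 ± 0.056 (SE, adjusted p = 2.36e-06), and it was close in the 3 litters, with 0.50 in litter 93, 0.49 in litter 100 and 0.41 in litter 108.

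Rnf128 (ENSMUSG00000031438) encodes GRAIL, an endosomal ubiquitin ligase known from T-cell anergy. It was at 71.03, 83.2, 116, 56.1 and 107 CPM in hyperoxic AM, against 13.02 to 37.1 CPM (median 25.04) in normoxic AM. Ly6Clo libraries had 39.5, 27.98, 47.95, 45.7 and 128 CPM in hyperoxia, against 9.25, 7.20, 12.6, 10.2 and 10.5 CPM in normoxia. Again AM and Ly6Clo did not overlap between the conditions, and 1 Ly6Clo library of litter 108 stood far above the others. In DC, where counts were few, it was at 1.63, 4.69, 20.2, 11.04 and 10.3 CPM in hyperoxia, against 0.636 to 4.02 CPM (median 2.26) in normoxia, and in Ly6Chi it reached 4.69 ± 2.01 CPM in hyperoxia and 2.55 ± 1.59 CPM in normoxia (mean ± SD). Averaged over the populations, the log2 fold change was 1.77 ± 0.22 (adjusted p = 2.43e-06), a change of more than 1 in each litter (1.49 in litter 93, 2.10 in litter 100 and 1.81 in litter 108).

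**Figure D2:**
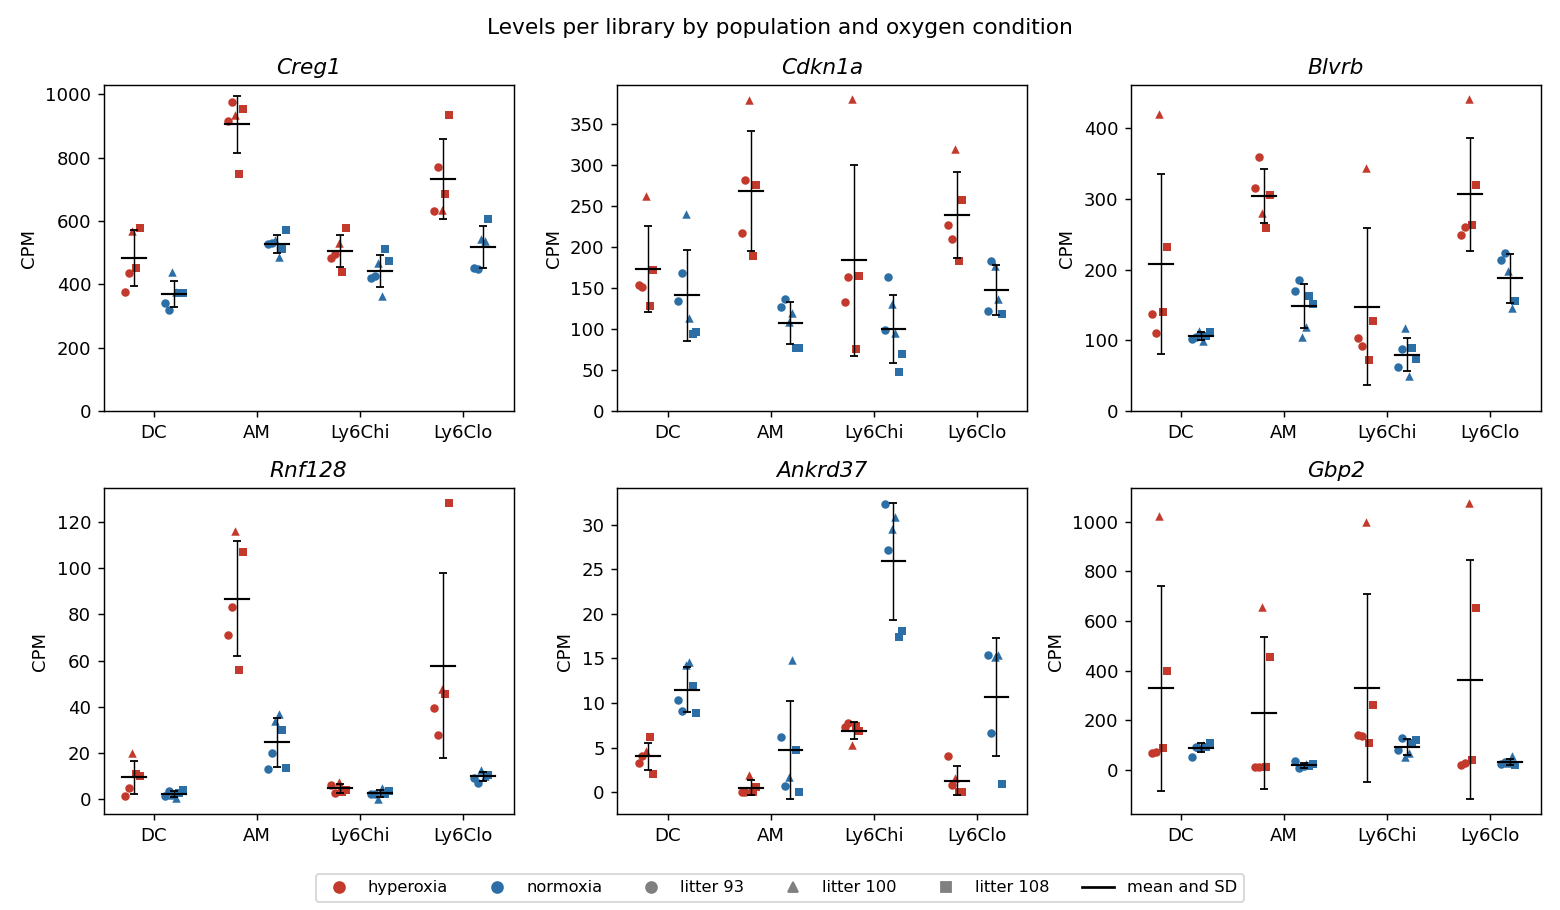
Each panel plots the CPM of 1 gene (Creg1, Cdkn1a, Blvrb, Rnf128, Ankrd37 and Gbp2) in every library, by population, with hyperoxia in red on the left of each pair and normoxia in blue on the right; marker shapes give the litter and black lines the mean and SD. Creg1 in AM lies at 915, 975, 936, 749.9 and 954 CPM in hyperoxia, above all normoxic AM, whereas the high Gbp2 values are the hyperoxic library of litter 100 and 1 of litter 108.

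Of 29 measured antioxidant genes that NRF2 is known to drive, 13 were called higher and 0 lower, 28 of 29 had a positive averaged log2 fold change, and the median was 0.28 beside −0.038 over all genes tested. The median was 0.25 in DC, 0.53 in AM, 0.13 in Ly6Chi and 0.30 in Ly6Clo, and 0.31 in litter 93, 0.15 in litter 100 and 0.28 in litter 108. Their mean level per library was 7.09 to 7.22 log2 CPM in hyperoxic AM and 6.35 to 6.65 log2 CPM in normoxic AM. Those ranges did not overlap in AM, nor in Ly6Clo, where they were 6.87 to 7.23 in hyperoxia and 6.50 to 6.71 in normoxia. Of the 13 calls, 10 held in every fit that left out 1 library; Srxn1, Abcc1 and Sqstm1 did not. Without litter 100 the count was 4 of 29 (Hmox1, Esd, Gclm and Blvrb) with a median of 0.30, and with genes detected as a covariate it was 2 (Esd and Gclm). Over all genes tested 2.34% were called higher and 0.678% lower, the shares to set beside this list and those below. Without litter 100 the share called was 0.156%, and with genes detected as a covariate 0.0958%.

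Blvrb (ENSMUSG00000040466), a biliverdin and flavin reductase of heme breakdown, was at 316, 359.8, 280.2, 259.6 and 305 CPM in hyperoxic AM, against 105 to 185 CPM (median 157) in normoxic AM. In Ly6Clo it was at 249, 261, 441, 263 and 319 CPM in hyperoxia, against 214, 224, 199, 145 and 156 CPM in normoxia, and neither population overlapped. DC libraries had 137, 111, 420.3, 141 and 232 CPM in hyperoxia, against 99.2 to 114 CPM (median 106) in normoxia, and Ly6Chi libraries had 103, 92.8, 344, 72.6 and 128 CPM in hyperoxia, against 49.99 to 118 CPM (median 80.7) in normoxia. The highest value in DC, Ly6Chi and Ly6Clo was the library of litter 100. The averaged log2 fold change was 0.89 ± 0.14 (adjusted p = 0.00019), with 0.46 in litter 93, 1.78 in litter 100 and 0.68 in litter 108, a difference between litters that passed its own test (adjusted p = 0.00787). With genes detected as a covariate its adjusted p was 0.096.

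Esd (ENSMUSG00000021996) encodes the esterase that frees glutathione from S-formylglutathione. It was at 511, 468, 574, 387 and 419 CPM in hyperoxic AM, against 247 to 274 CPM (median 261) in normoxic AM. Ly6Clo libraries had 269, 292, 472, 254 and 398 CPM in hyperoxia, against 201, 228, 177, 213 and 210.1 CPM in normoxia. The conditions were apart in both populations. In DC it was at 137, 135, 287, 153 and 208 CPM in hyperoxia, against 114 to 166 CPM (median 135) in normoxia, and in Ly6Chi at 163, 154, 321, 131 and 186 CPM in hyperoxia, against 135 to 206 CPM (median 158) in normoxia, with overlap in both. Its log2 fold change averaged 0.58 ± 0.077 (adjusted p = 1.01e-05).

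Slc7a11, the cystine importer that feeds glutathione synthesis, was at 143, 231, 641, 238 and 511 CPM in hyperoxic AM, against 35.7 to 110.0 CPM (median 63.1) in normoxic AM. In Ly6Clo it was at 123, 97.9, 663, 162 and 714 CPM in hyperoxia, against 41.3, 114, 65.7, 48.97 and 32.3 CPM in normoxia. The library of litter 100 and the last library of litter 108 were by far the highest in each of these populations. Averaged over the populations, the log2 fold change was 1.78 ± 0.25 (adjusted p = 3.92e-05), with 0.58 in litter 93, 2.63 in litter 100 and 2.402 in litter 108 (adjusted p of the difference between litters = 0.00851). Without litter 100 its adjusted p was 0.0724 with a log2 fold change of 1.43.

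Gclm, the modifier subunit of the enzyme that begins glutathione synthesis, showed the opposite weighting of litters. It was at 161, 176, 129.6, 150.0 and 163 CPM in hyperoxic AM, against 73.05 to 106 CPM (median 86.2) in normoxic AM, without overlap. Ly6Clo libraries had 116, 109, 73.5, 133 and 125 CPM in hyperoxia, against 69.7, 58.2, 69.9, 73.8 and 103 CPM in normoxia. The library of litter 100 was the lowest hyperoxic library in AM, Ly6Chi and Ly6Clo. The averaged log2 fold change was 0.48 ± 0.09 (adjusted p = 0.00179), with 0.62 in litter 93, 0.13 in litter 100 and 0.55 in litter 108, and without litter 100 it was 0.59 (adjusted p = 0.000451). Gclm is a textbook gene with an antioxidant response element, and the promoter window that RefSeq gives for it in build GRCm38.p6, 250 bases before to 50 after its start at chr3:122245307-122245606 on the plus strand, is shown here because that motif is the one NRF2 is known to bind; capitals mark the match to TGACNNNGC on the other strand, starting 134 bases before the start.
Gclm: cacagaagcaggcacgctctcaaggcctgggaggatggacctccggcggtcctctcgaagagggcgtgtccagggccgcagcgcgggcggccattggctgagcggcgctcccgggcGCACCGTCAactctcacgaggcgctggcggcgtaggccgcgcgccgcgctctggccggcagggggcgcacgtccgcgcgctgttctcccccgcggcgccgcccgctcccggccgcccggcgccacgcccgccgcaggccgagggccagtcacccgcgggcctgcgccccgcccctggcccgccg
Counted by gene over all its windows and on either strand, TGACNNNGC was in 5 of 12 called NRF2 genes, in 8 of 23 NRF2 genes tested, in 17.1% of all genes tested that have a window and in 14% of all genes with one; by window the share was 12.4% of 32851. A match is a description of the letters and not of binding.

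Genes of thioredoxin, NADPH and iron storage rose as well, but none of those named in this paragraph was called without litter 100. Prdx1, a peroxiredoxin, had an averaged log2 fold change of 0.38 ± 0.067 (adjusted p = 0.00107), with 0.38 in DC, 0.57 in AM, 0.25 in Ly6Chi and 0.30 in Ly6Clo. Txnrd1, the reductase of thioredoxin, had 0.47 ± 0.096 (adjusted p = 0.00521) and Txn1, thioredoxin itself, 0.41 ± 0.097 (adjusted p = 0.0155). Pgd, which makes NADPH in the pentose phosphate pathway, had 0.28 ± 0.065 (adjusted p = 0.0141). The ferritin chains Fth1 and Ftl1, which store iron, had 0.38 ± 0.089 and 0.30 ± 0.072 (adjusted p = 0.0141 and 0.0163). Srxn1, the sulfiredoxin that repairs peroxiredoxins, had 0.55 ± 0.15 (adjusted p = 0.0325), but its call ended in 4 of the 43 fits that left out 1 library, those without hyperoxic replicate 3 of DC, AM or Ly6Chi or replicate 5 of Ly6Clo, with an adjusted p of up to 0.069. Nfe2l2, the gene of NRF2 itself, had 0.24 ± 0.063 (adjusted p = 0.0305); its call ended without hyperoxic replicate 3 of DC or of Ly6Chi (adjusted p of up to 0.0688).

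**Figure D3:**
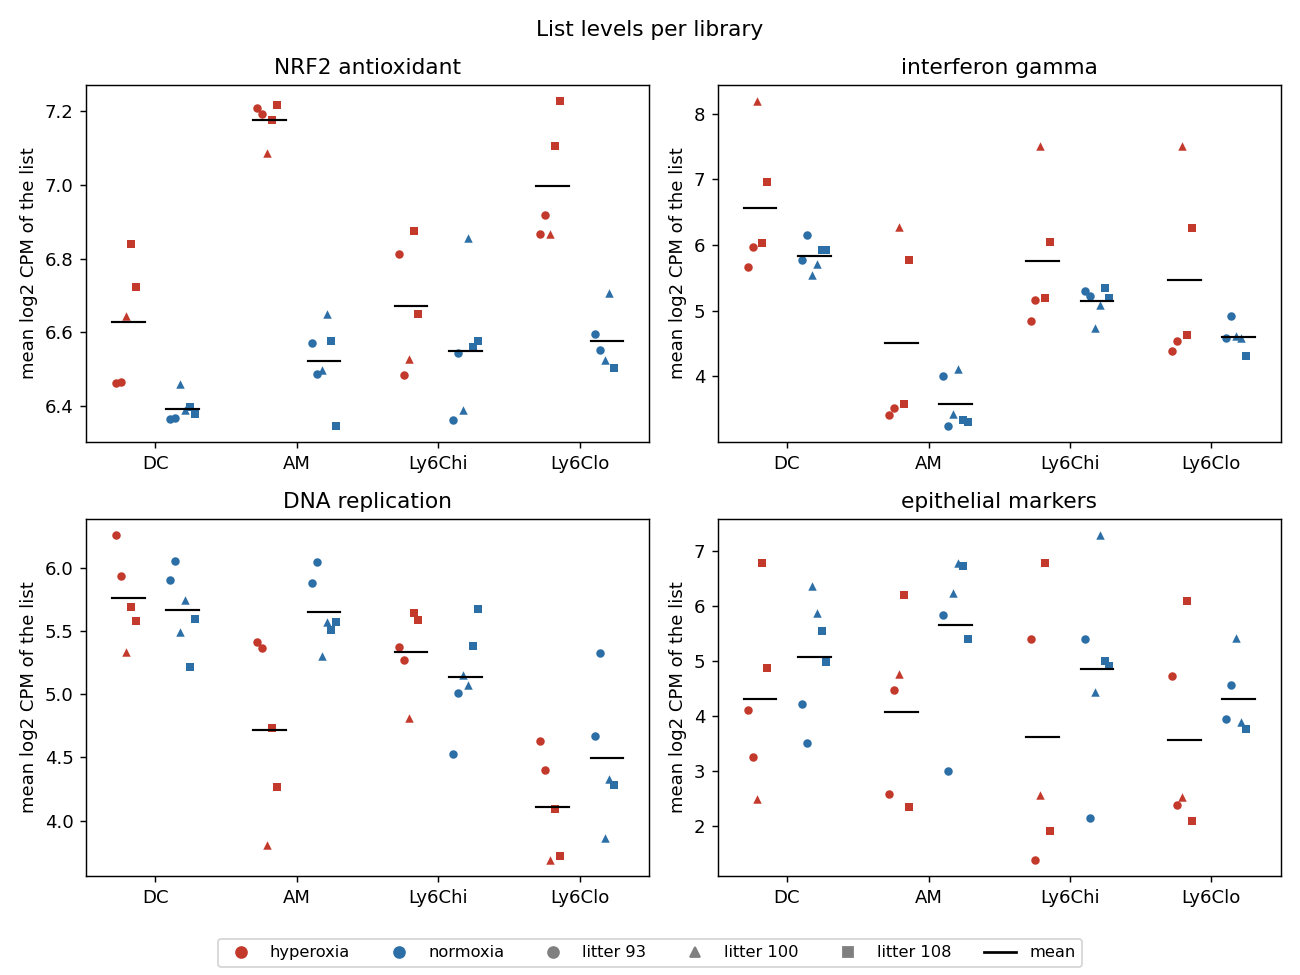
Each panel plots, for every library, the mean log2 CPM of 1 gene list (NRF2 antioxidant, interferon gamma, DNA replication and epithelial markers) by population, hyperoxia in red on the left and normoxia in blue on the right; marker shapes give the litter. All hyperoxic AM lie above all normoxic AM for the NRF2 list, whereas for interferon gamma the litter 100 library and 1 litter 108 library of hyperoxia stand above the rest.

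Several p53 targets rose as well. Of 30 measured p53 targets 7 were called higher (Cdkn1a, Mdm2, Ccng1, Zmat3, Bax, Psrc1 and Rps27l), beside 2.34% of all genes tested, and 0 lower. The list's median was only 0.086, however, and 20 of 30 were positive. Without litter 100 the count was 5 of 31 (Mdm2, Ccng1, Cdkn1a, Zmat3 and Psrc1) with a median of 0.19. Without litter 93 it had 5 calls and without litter 108 it had 6. All but Rps27l were called in every fit that left out 1 library. Without only the hyperoxic libraries of litter 100 the count was 2, Ccng1 and Cdkn1a.

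Cdkn1a (ENSMUSG00000023067) encodes p21, the inhibitor of cyclin-dependent kinases. It was at 217, 281, 379, 189 and 275 CPM in hyperoxic AM, against 76.3 to 137 CPM (median 114) in normoxic AM. In Ly6Clo it was at 227, 209.8, 319.7, 183 and 257 CPM in hyperoxia, against 122, 182, 177, 137 and 118 CPM in normoxia. The conditions did not overlap in these populations. DC libraries had 154, 151, 262, 128 and 172 CPM in hyperoxia, against 94.3 to 239.8 CPM (median 124) in normoxia, and Ly6Chi libraries had 133, 163, 381, 75.4 and 165 CPM in hyperoxia, against 47.2 to 163 CPM (median 96.5) in normoxia, with wide overlap. Its log2 fold change averaged 0.88 ± 0.11 (adjusted p = 5.81e-06), with 0.40 in litter 93, 1.30 in litter 100 and 1.08 in litter 108 (adjusted p of the difference between litters = 0.0341).

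Mdm2, the ubiquitin ligase that degrades p53 and is its target, was at 109, 166, 221, 165 and 214 CPM in hyperoxic AM, against 79.8 to 112 CPM (median 89.2) in normoxic AM. Ly6Clo libraries had 165, 132, 181, 152 and 233 CPM in hyperoxia, against 112, 102, 110.3, 95.7 and 146 CPM in normoxia. No population was free of overlap. Averaged over the populations, the log2 fold change was 0.49 ± 0.084 (adjusted p = 0.000521). Ccng1, which encodes cyclin G1, had 0.42 ± 0.083 (adjusted p = 0.00437), and Zmat3, an RNA-binding protein, had 0.81 ± 0.17 (adjusted p = 0.00561); for both the effect was largest in AM (0.79 and 1.76) and smallest in Ly6Chi (0.031 and 0.19). Bax, a pore-forming protein of apoptosis, had 0.30 ± 0.068 (adjusted p = 0.0123), nearly even over the populations with 0.27 in DC, 0.37 in AM, 0.33 in Ly6Chi and 0.25 in Ly6Clo.

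A few cell cycle genes were called lower, where 0.678% of all genes tested were called lower and 3.02% were called either way. The medians of their lists were negative in AM and Ly6Clo and near 0 or positive in DC and Ly6Chi, a difference that was not tested. Of 35 replication genes 3 were called lower (Mcm4, Mcm5 and Mcm10) and 0 higher, 33 of 35 were negative and the median was −0.32; by population the median was 0.029 in DC, −0.93 in AM, 0.071 in Ly6Chi and −0.50 in Ly6Clo. Of 36 mitosis genes 1 (Kif11, a spindle motor) was called lower, all 36 were negative and the median was −0.35, with 0.23 in DC, −0.86 in AM, 0.12 in Ly6Chi and −0.91 in Ly6Clo. Mcm4, a subunit of the replicative helicase, was at 99.2, 95.5, 40.04, 57.01 and 47.1 CPM in hyperoxic AM, against 67.4 to 141 CPM (median 118) in normoxic AM. In Ly6Clo it was at 45.2, 50.2, 22.4, 34.1 and 38.2 CPM in hyperoxia, against 48.7, 58.7, 42.95, 61.4 and 74.1 CPM in normoxia. The lowest value of both populations was the hyperoxic library of litter 100, and the conditions overlapped. The averaged log2 fold change was −0.48 ± 0.12 (adjusted p = 0.0203), and its call ended without hyperoxic replicate 3 of Ly6Chi (adjusted p = 0.052). Mcm5 and Mcm10 lost their calls in 26 and 29 of the 43 fits (adjusted p of up to 0.128 and 0.106), and Kif11 without hyperoxic replicate 3 of DC or of Ly6Chi (up to 0.0557). Without litter 100 edgeR called 0 genes in either list (6 and 2 at an unadjusted p under 0.05). Wdhd1, a replication factor outside these lists, had −0.61 ± 0.14 (adjusted p = 0.0141), and Xrcc6, the Ku70 subunit of end joining and the only call among 27 DNA repair genes, had −0.49 ± 0.12 (adjusted p = 0.0152) with −0.45 in litter 93, −0.60 in litter 100 and −0.49 in litter 108.

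Among the HIF targets 1 gene fell steeply. Of 26 measured members 1 was called lower (Ankrd37) and 1 higher (Slc2a1), beside 0.678% and 2.34% of all genes tested. The list's median was −0.054. Ankrd37 (ENSMUSG00000050914), an ankyrin repeat gene that HIF-1 is known to activate, was at 7.32, 7.73, 5.24, 7.45 and 6.80 CPM in hyperoxic Ly6Chi, against 17.4 to 32.4 CPM (median 28.4) in normoxic Ly6Chi. In DC it was at 3.27, 4.02, 4.65, 6.13 and 2.06 CPM in hyperoxia, against 8.84 to 14.6 CPM (median 11.1) in normoxia. The conditions did not overlap in either. In AM it was at 0, 0, 1.91, 0 and 0.612 CPM in hyperoxia, against 0 to 14.8 CPM (median 3.21) in normoxia, and in Ly6Clo at 4.03, 0.823, 1.60, 0 and 0 CPM in hyperoxia, against 15.4, 6.65, 15.2, 15.3 and 0.872 CPM in normoxia, where counts were few and 3 hyperoxic AM and 2 hyperoxic Ly6Clo libraries had none. Its log2 fold change averaged −2.25 ± 0.34 (adjusted p = 0.000118), and it fell in each litter, with −2.23 in litter 93, −2.77 in litter 100 and −2.01 in litter 108. The promoter window of Ankrd37 (RefSeq, GRCm38.p6, chr8:45999801-46000100, minus strand) is shown because it is the 1 HIF target called lower; capitals mark 2 matches to the hypoxia response element core ACGTG, starting 241 and 6 bases before the start.
Ankrd37: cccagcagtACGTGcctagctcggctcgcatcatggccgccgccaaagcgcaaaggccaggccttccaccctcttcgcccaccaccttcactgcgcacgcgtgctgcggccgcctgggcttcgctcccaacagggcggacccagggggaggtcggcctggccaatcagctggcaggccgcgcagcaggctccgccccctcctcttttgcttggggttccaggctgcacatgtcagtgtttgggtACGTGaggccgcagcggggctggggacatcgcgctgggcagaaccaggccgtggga
The letters ACGTG on either strand were in 16 of 23 HIF targets tested, among them both that were called, in 29.4% of all genes tested that have a window and in 19.6% of all 32851 windows. Slc2a1, the glucose transporter GLUT1, had 0.57 ± 0.14 (adjusted p = 0.0229), with −0.054 in litter 93, 1.38 in litter 100 and 0.64 in litter 108; its call ended without hyperoxic replicate 3 of DC (adjusted p = 0.0577).

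Txnip (ENSMUSG00000038393), which binds thioredoxin and restrains glucose uptake, was lower in hyperoxia at a high level of expression. It was at 177, 182, 168, 295 and 204 CPM in hyperoxic AM, against 256 to 371 CPM (median 335) in normoxic AM. Ly6Clo libraries had 392, 484, 201, 527 and 354 CPM in hyperoxia, against 595, 466, 449.8, 634 and 755 CPM in normoxia. The litter 100 library was the lowest hyperoxic library in both. DC libraries had 353, 401, 279, 518 and 488 CPM in hyperoxia, against 351 to 616 CPM (median 454) in normoxia, and Ly6Chi libraries had 462, 515, 274, 639.9 and 518 CPM in hyperoxia, against 481 to 733 CPM (median 569.7) in normoxia. The conditions overlapped in all 4 populations. Averaged over the populations, the log2 fold change was −0.51 ± 0.079 (adjusted p = 0.000173), with −0.28 in DC, −0.74 in AM, −0.34 in Ly6Chi and −0.67 in Ly6Clo, and the effect differed between litters (−0.29 in litter 93, −0.99 in litter 100 and −0.43 in litter 108, adjusted p = 0.0277).

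Genes of lipid, lysosome and iron handling rose in part. Lpl (ENSMUSG00000015568), the lipoprotein lipase that marks alveolar macrophages, was at 254, 243, 216, 242 and 175 CPM in hyperoxic DC, against 93.5 to 142 CPM (median 135) in normoxic DC, without overlap. In Ly6Chi it was at 124, 79.9, 118, 111 and 73.4 CPM in hyperoxia, against 31.7 to 94.7 CPM (median 74.6) in normoxia. In AM it was at 1669.8, 1450.2, 1886, 1162 and 1110.4 CPM in hyperoxia, against 871 to 1449 CPM (median 971) in normoxia, and in Ly6Clo at 999, 832, 1143, 873 and 708 CPM in hyperoxia, against 737, 556, 696, 646 and 833 CPM in normoxia. The averaged log2 fold change was 0.60 ± 0.086 (adjusted p = 3.92e-05) with 0.61 in litter 93, 0.74 in litter 100 and 0.49 in litter 108. The other 20 alveolar macrophage markers measured gave 1 call, Bhlhe41 (0.69 ± 0.20, adjusted p = 0.0473, lost in 22 of 43 fits with an adjusted p of up to 0.216), and the median of the 21 was 0.012. Of 25 lipid genes 2 were called higher, beside 2.34% of all genes tested. They were Lpl and the acyl-CoA synthetase Acsl1 (0.58 ± 0.14, adjusted p = 0.0232, and 0.056 without hyperoxic replicate 3 of DC).

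Of 33 lysosome genes 28 were positive and the median was 0.12. Of the 33, 6 were called higher, beside 2.34% of all genes tested, and 0 lower. Beside Creg1 they were Slc11a1, which pumps iron and manganese out of the phagosome, Atp6v1a, a subunit of the proton pump (0.27 ± 0.059, adjusted p = 0.011), the cholesterol exporters Npc1 and Npc2 (0.30 ± 0.08 and 0.20 ± 0.053, adjusted p = 0.0306 and 0.0245), and Cd68 (0.26 ± 0.068, adjusted p = 0.0295). The last 3 lost their calls without hyperoxic replicate 3 of DC or of Ly6Chi (adjusted p of up to 0.0607, 0.056 and 0.0711), and without litter 100 Creg1 was the 1 call left of 33. Of 16 iron genes 4 were called higher (Blvrb, Slc11a1, Fth1 and Ftl1), and all 4 held in every fit that left out 1 library. Without litter 100 the count was 2 of 16 (Blvrb and Hmox1), where Slc11a1, Fth1 and Ftl1 had adjusted p = 0.0865, 0.335 and 0.247, and in litter 108 Fth1 and Ftl1 had −0.052 and 0.026. With genes detected as a covariate edgeR called 0 of 16 (7 at an unadjusted p under 0.05).

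Of the pathway lists, interferon gamma targets had the highest median, and their highest values were in few libraries. Of 24 interferon gamma targets 14 were called higher, beside 2.34% of all genes tested, and 0 lower. All 24 were positive and the median was 0.87. By litter the median was 0.032 in litter 93, 2.16 in litter 100 and 0.90 in litter 108. The 14 were called in a fit that held the libraries counted next, so high counts partly follow from that selection. They describe where the high values lie and are no separate support. In every population the hyperoxic library of litter 100 was above all normoxic libraries in 14 of the 14 called genes. The last library of litter 108 was above them in 12 of 14 in DC, 14 in AM, 10 in Ly6Chi and 14 in Ly6Clo. The other library of litter 108 was above all normoxic libraries in 1, 4, 0 and 2 of the 14, and the first library of litter 93 in 0, 5, 2 and 1. Without litter 100 edgeR called 0 of 24 (9 at an unadjusted p under 0.05), with a median of 0.47, and without litter 108 it called 7 of 25. Markers of T and NK cells differed between litters beside them, with a median log2 fold change of −0.54 for the 12 measured, −2.81 in litter 93, 2.12 in litter 100 and 0.81 in litter 108. The mean level of these markers in the hyperoxic library of litter 100 was 3.68 log2 CPM in DC, 2.81 in AM, 4.49 in Ly6Chi and 1.73 in Ly6Clo, against 1.88 to 4.52 in normoxic DC, 0.35 to 2.96 in normoxic AM, −0.43 to 3.07 in normoxic Ly6Chi and 0.54 to 5.32 in normoxic Ly6Clo. It was the highest hyperoxic library in DC, AM and Ly6Chi and above all normoxic libraries in Ly6Chi. Their part in the interferon gamma values was not tested.

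Gbp2, a guanylate-binding protein of cell-autonomous defence, was high in the same libraries. It was at 10.7, 13.5, 658, 12.3 and 453 CPM in hyperoxic AM, against 5.77 to 33.98 CPM (median 18.5) in normoxic AM. In DC it was at 65.9, 71.7, 1021, 86.2 and 397 CPM in hyperoxia, against 53.8 to 107 CPM (median 92.1) in normoxia. In both the litter 100 library and the last litter 108 library were high and the other hyperoxic libraries lay near the normoxic ones. In Ly6Chi it was at 141, 135, 997, 108 and 260.1 CPM in hyperoxia, against 51.9 to 130.2 CPM (median 94.7) in normoxia, and in Ly6Clo at 18.6, 27.98, 1076, 39.1 and 653 CPM in hyperoxia, against 22.2, 31.6, 29.5, 54.1 and 20.9 CPM in normoxia. Its log2 fold change averaged 2.23 ± 0.44 (adjusted p = 0.00521), with 0.26 in litter 93, 4.32 in litter 100 and 2.36 in litter 108 (adjusted p of the difference between litters = 0.011); without litter 100 its adjusted p was 0.335.

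Irf1, the transcription factor at the head of the interferon gamma response, was at 84.4, 70.98, 332, 96.5 and 278 CPM in hyperoxic AM, against 22.9 to 91.2 CPM (median 56.8) in normoxic AM. In Ly6Chi it was at 332, 351, 558, 297 and 335 CPM in hyperoxia, against 197 to 310.0 CPM (median 274) in normoxia. The litter 100 library was the highest in both, and the last litter 108 library came next to it in AM. Averaged over the populations, the log2 fold change was 0.82 ± 0.17 (adjusted p = 0.0055, and 0.309 without litter 100). The first of its 2 RefSeq windows in GRCm38.p6 (chr11:53769764-53770063, plus strand) is shown because a gamma interferon activated site is a known element of this promoter; capitals mark the match to TTCNNNGAA, starting 90 bases before the start, and the second window (chr11:53770223-53770522) holds no match.
Irf1: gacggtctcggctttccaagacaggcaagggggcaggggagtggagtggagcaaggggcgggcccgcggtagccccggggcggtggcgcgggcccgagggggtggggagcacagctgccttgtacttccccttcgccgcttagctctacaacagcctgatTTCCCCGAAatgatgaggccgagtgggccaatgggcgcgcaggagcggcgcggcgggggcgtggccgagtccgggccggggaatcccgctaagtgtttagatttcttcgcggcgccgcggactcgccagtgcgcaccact
Counted by gene on both strands, TTCNNNGAA was in 5 of 11 called interferon gamma targets, in 9 of 18 of those tested, in 8.33% of all genes tested that have a window and in 9.55% of all genes with one; by window the share was 8.3%. Other called members were Tgtp2 (2.29 ± 0.43, adjusted p = 0.00206), an immunity-related GTPase, Gbp3 (1.47 ± 0.30, adjusted p = 0.00742), the checkpoint ligand Cd274 (0.88 ± 0.20, adjusted p = 0.0141) and the peptide transporter Tap1 (0.85 ± 0.20, adjusted p = 0.0141).

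Genes of NF-kB and type I interferon rose in part, again with the largest medians in litter 100. Of 30 inflammatory NF-kB genes 9 were called higher, beside 2.34% of all genes tested, and 0 lower. Of the 30, 29 were positive and the median was 0.54, with −0.033 in litter 93, 1.44 in litter 100 and 0.41 in litter 108. Of 30 type I interferon genes 6 were called higher and 0 lower, with a median of 0.25 and litter medians of −0.012, 1.0 and −0.069 in the same order. Without litter 100 edgeR called 0 in either list (8 and 2 at an unadjusted p under 0.05). Tnfaip2, a TNF-induced gene, had 0.70 ± 0.12 (adjusted p = 0.000769), Sod2, the mitochondrial superoxide dismutase, 0.56 ± 0.11 (adjusted p = 0.00309), and the interleukin genes Il1a, Il1b and Il1rn 1.54 ± 0.31, 0.62 ± 0.15 and 0.74 ± 0.16 (adjusted p = 0.00608, 0.0192 and 0.0129). For Il1b the litters gave 0.11 in litter 93, 1.75 in litter 100 and 0.27 in litter 108 (adjusted p of the difference = 0.00011). Of the type I interferon genes Ifit2 and Zbp1 had 1.21 ± 0.31 and 0.94 ± 0.25 (adjusted p = 0.0282 and 0.0357), with calls lost in 2 and 5 of 43 fits (up to 0.0613 and 0.102), and Ifit3, an antiviral protein, had 1.07 ± 0.27 (adjusted p = 0.0214), with 3.24 in AM and −0.03 in Ly6Chi.

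Acod1, which makes itaconate in activated macrophages, had the largest averaged rise of all called genes with a mean of at least 5 CPM. It was at 0, 0, 352, 0.409 and 56.1 CPM in hyperoxic DC, against 0 to 3.18 CPM (median 0.201) in normoxic DC. In Ly6Clo it was at 0, 0, 454, 0 and 275 CPM in hyperoxia, against 0.617, 3.88, 2.53, 5.85 and 0 CPM in normoxia. Apart from the litter 100 library and the last litter 108 library the hyperoxic values were at or near 0. The averaged log2 fold change was 5.31 ± 0.85 (adjusted p = 0.000456), with −0.67 in litter 93, 6.67 in litter 100 and 6.28 in litter 108, and it depends on the prior count where libraries are at 0; without litter 100 its adjusted p was 0.318. Inhba, the activin A subunit, had 4.11 ± 0.75 (adjusted p = 0.00203) and −0.51 in litter 93. Npy, neuropeptide Y, had 4.03 ± 0.69 (adjusted p = 0.000889), with 0 to 227 CPM (median 13.5) in the 20 hyperoxic and 0 to 15.3 CPM (median 0.402) in the 23 normoxic libraries. Ptges, which makes prostaglandin E2, had 2.33 ± 0.36 (adjusted p = 0.000196), with 8.17, 4.02, 213, 9.81 and 44.3 CPM in hyperoxic DC, against 0.532 to 6.03 CPM (median 2.21) in normoxic DC. Gm14636, an unnamed gene model of low level, had 2.78 ± 0.44 (adjusted p = 0.000196), with 0 to 16.3 CPM (median 3.14) in hyperoxic and 0 to 7.06 CPM (median 0.657) in normoxic libraries and with 2.94 in litter 93, 3.20 in litter 100 and 2.02 in litter 108. Serpina3f and Gm4951, also among the largest rises, had 4.09 ± 0.89 and 3.62 ± 0.85 (adjusted p = 0.0123 and 0.0206) with −1.25 and 1.36 in litter 93.

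Of 16 C-type lectin genes, receptors by which myeloid cells sense microbes and damage, 4 were called higher and 0 lower. The median was 0.39, with 0.21 in DC, 0.37 in AM, 0.20 in Ly6Chi and 0.0053 in Ly6Clo. Clec4d, a receptor for mycobacterial glycolipid, was the first of them by p (1.28 ± 0.21, adjusted p = 0.000456), with 1.50 in DC, 2.002 in AM, 0.41 in Ly6Chi and 1.19 in Ly6Clo. Clec7a, which encodes Dectin-1, had 0.39 ± 0.08 (adjusted p = 0.00541) and Clec4n, which encodes Dectin-2, 0.43 ± 0.10 (adjusted p = 0.0141). Clec4e, which encodes Mincle, had 0.96 ± 0.26 (adjusted p = 0.0339) and lost its call in 7 of 43 fits (up to 0.0711). The lectin list had 0 calls by edgeR without litter 100 (5 at an unadjusted p under 0.05), where the median was 0.27. Outside this list Ptafr, the receptor of platelet-activating factor, had 0.86 ± 0.15 (adjusted p = 0.000769), and Ly96, the MD-2 partner of TLR4, 0.45 ± 0.092 (adjusted p = 0.0055); Ly96 and Mdm2 were the only genes beside the core that were called without each litter in turn. The NADPH oxidase subunits Cybb and Cyba had 0.40 ± 0.09 and 0.30 ± 0.083 (adjusted p = 0.0133 and 0.0359), and Cyba lost its call in 4 of 43 fits, without hyperoxic replicate 3 of DC, Ly6Chi or Ly6Clo or replicate 1 of AM (adjusted p of up to 0.0934).

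**Figure D4:**
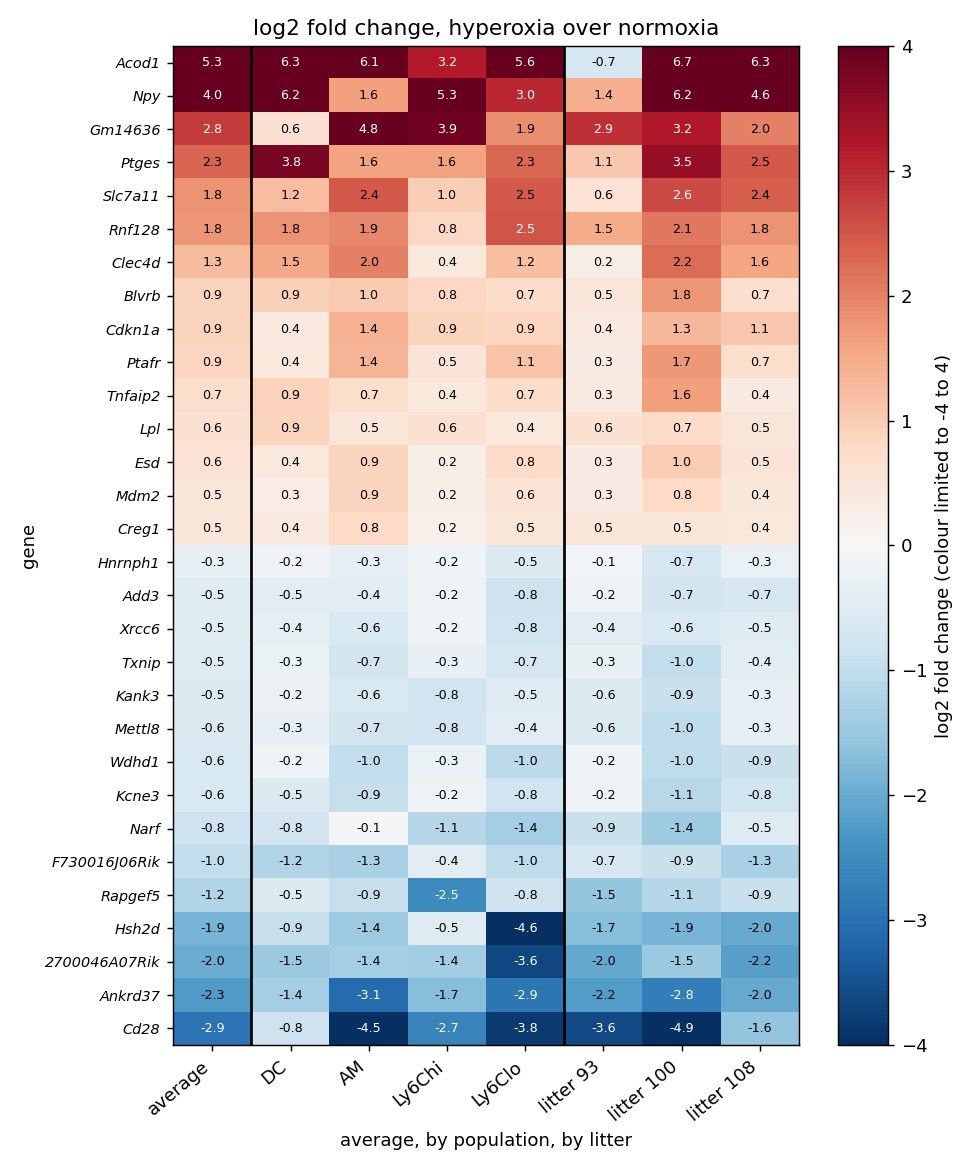
Rows are the 15 higher and 15 lower genes with the smallest p that had a symbol and 1 sign in all 4 populations, ordered by averaged log2 fold change; columns are the average, the 4 populations and the 3 litters, and cells hold the log2 fold change of hyperoxia over normoxia. Acod1 has −0.67 in litter 93 and 6.67 in litter 100, whereas Creg1 has 0.50 and 0.49.

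The other genes that fell included a part of the membrane skeleton, a channel subunit and a splicing factor. Narf had −0.84 ± 0.16 (adjusted p = 0.00173), with −0.78 in DC, −0.079 in AM, −1.15 in Ly6Chi and −1.36 in Ly6Clo. Add3, a subunit of the membrane skeleton, had −0.48 ± 0.09 (adjusted p = 0.00203), Kcne3, a potassium channel subunit, −0.61 ± 0.12 (adjusted p = 0.00521), and the splicing factor Hnrnph1 −0.30 ± 0.069 (adjusted p = 0.0141). The adaptor gene Hsh2d fell by 1.87 ± 0.40 on the log2 scale (adjusted p = 0.0111), with −1.70 in litter 93, −1.87 in litter 100 and −2.02 in litter 108; by population it had −0.91 in DC, −1.45 in AM, −0.51 in Ly6Chi and −4.60 in Ly6Clo. Kank3, Mettl8 and Rapgef5 had −0.54 ± 0.13, −0.57 ± 0.14 and −1.21 ± 0.29 (adjusted p = 0.0159, 0.0192 and 0.0173); Mettl8 lost its call without hyperoxic replicate 3 of DC (adjusted p = 0.0514). Prkar1b, a regulatory subunit of protein kinase A, and Fcrla had −1.46 ± 0.40 and −1.39 ± 0.39 (adjusted p = 0.0376 and 0.0392), with calls lost in 9 and 17 of 43 fits (up to 0.0733 and 0.0773). Rhoc, a small GTPase, had −0.64 ± 0.18 (adjusted p = 0.0366), with −0.18 in DC, −0.29 in AM, −2.19 in Ly6Chi and 0.095 in Ly6Clo, and lost its call in 12 of 43 fits (up to 0.0805). F730016J06Rik and 2700046A07Rik had −0.98 ± 0.22 and −1.97 ± 0.46 (adjusted p = 0.0107 and 0.0141).

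Genes of amino acid transport and synthesis changed in both directions. In the list for ER stress and ATF4 1 of 24 was called higher, Slc3a2 (0.34 ± 0.082, adjusted p = 0.0187), the partner chain of Slc7a11, and 3 were called lower. These were the proline and serine pathway enzymes Aldh18a1 (−0.50 ± 0.12, adjusted p = 0.0187) and Shmt2 (−0.48 ± 0.13, adjusted p = 0.0306), and Slc7a5, another partner of Slc3a2 (−0.72 ± 0.20, adjusted p = 0.0392). Shmt2 and Slc7a5 lost their calls in 6 and 16 of 43 fits (adjusted p of up to 0.0711 and 0.0804). Of 30 oxidative phosphorylation genes 4 were called higher (Cox7a2, 0.41 ± 0.10, Ndufb8, 0.29 ± 0.078, Ndufa1, 0.36 ± 0.10, and Cox6a1, 0.33 ± 0.096), with a median of 0.11, and none held in every fit that left out 1 library; edgeR called 0 of 30 without litter 100 (8 at an unadjusted p under 0.05) or without litter 93 (13), and 10 without litter 108. Chchd10, a small mitochondrial protein, had 0.64 ± 0.13 (adjusted p = 0.00437), with 0.51 in litter 93, 0.67 in litter 100 and 0.74 in litter 108. By edgeR 0 genes were called in the lists for ribosomal proteins (14 of 30 at an unadjusted p under 0.05, median 0.17), heat shock (1 of 12), cholesterol synthesis (4 of 21) and metallothionein and zinc (2 of 8). In these lists limma voom also called 0, and DESeq2 called 3 ribosomal proteins (Rps14, Rps3 and Rps19), Hspe1, Mvd and Mt1, all higher in hyperoxia. Among further lists 1 call each was made among 29 proteasome genes (Psmb5, 0.25 ± 0.066), 11 MHC class II genes (Ctss, 0.29 ± 0.074), 16 clock genes (Bhlhe41), 17 glucocorticoid genes (Il1r2, −1.09 ± 0.31) and 22 immediate early genes (Dusp2), shares that can be read beside the 3.02% of all genes tested. Il1r2 lost its call in 30 of 43 fits (adjusted p of up to 0.101), Psmb5 without hyperoxic replicate 3 of DC or Ly6Chi or 5 of Ly6Clo (up to 0.0805) and Ctss without hyperoxic replicate 3 of Ly6Chi (0.0543). Higher in hyperoxia were 3 of 28 tissue repair genes, Tgfbi (0.33 ± 0.078), Plaur (0.32 ± 0.082) and Mmp14 (1.07 ± 0.28), and 2 of 17 glycolysis genes, Hk3 (1.02 ± 0.25) and Slc2a1. Plaur and Hk3 lost their calls without hyperoxic replicate 3 of DC (adjusted p = 0.0634 and 0.05), and Mmp14 without hyperoxic replicate 3 of DC, Ly6Chi or Ly6Clo or 5 of AM (up to 0.075).

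**Figure D5:**
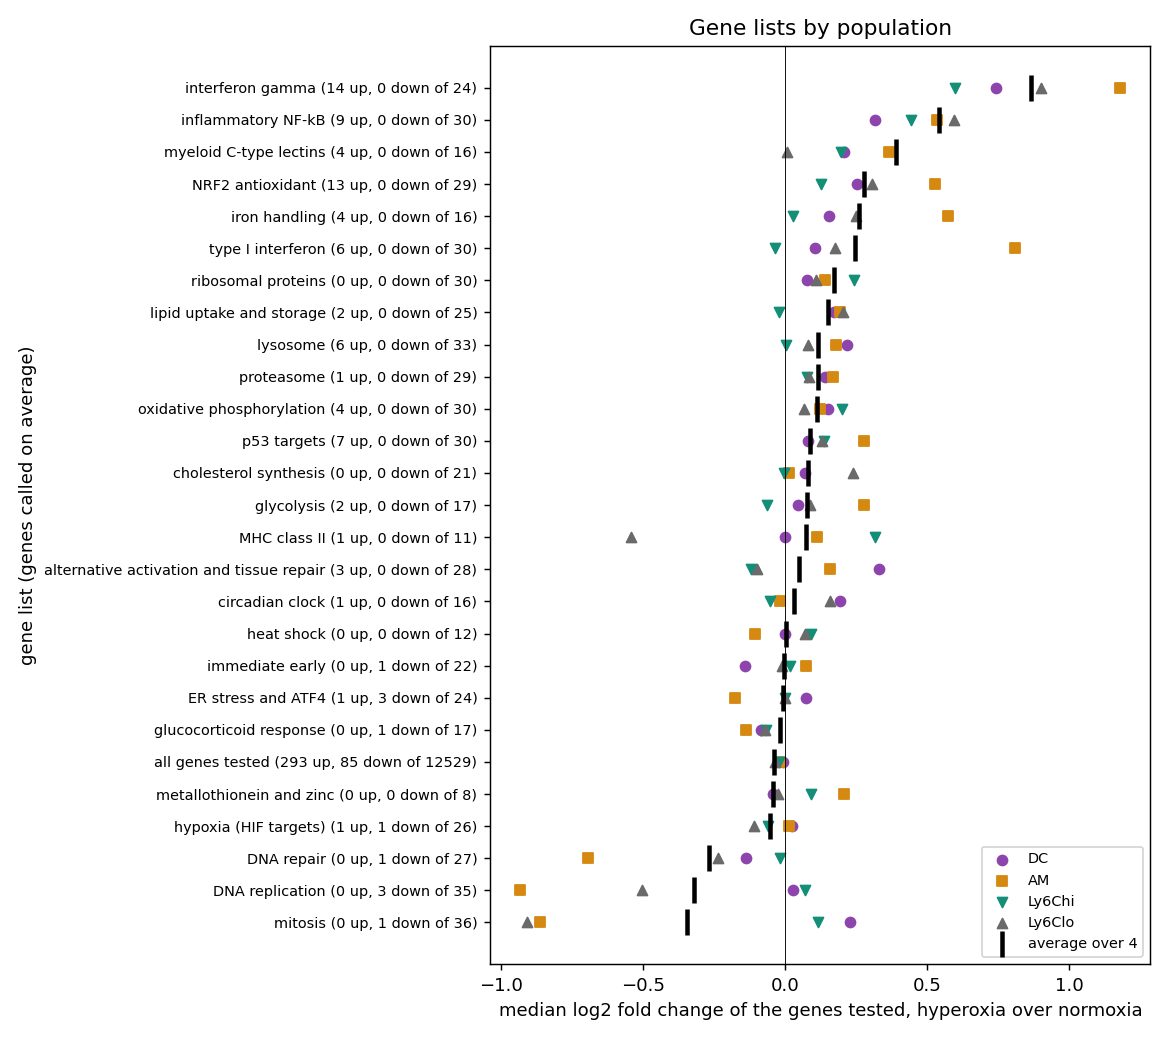
Rows are the gene lists, with the number of genes called higher and lower on average and the number tested; symbols give the median log2 fold change of each list in DC, AM, Ly6Chi and Ly6Clo, and the black bar that of the averaged contrast. Interferon gamma lies farthest to the right (median 0.87) of the pathway lists, and the replication and mitosis lists are split between DC and Ly6Chi near 0 and AM and Ly6Clo below 0.

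Markers of cells outside the gates moved in some libraries beside these results. For 19 epithelial markers 0 were called by edgeR (1 at an unadjusted p under 0.05) and by limma voom, and DESeq2 called Scgb3a2 lower; the median log2 fold change was −0.49, with −0.61 in litter 93, −3.01 in litter 100 and 0.62 in litter 108; their summed level was 490.06 to 3312.8 CPM in hyperoxic and 817.1 to 3875.7 CPM in normoxic AM. For 19 endothelial markers the median was −0.58, 18 were negative and 1 was called lower, Pecam1 (−0.98 ± 0.28, adjusted p = 0.0461), whose call ended in 24 of 43 fits with an adjusted p of up to 0.0979. Their summed level was 85.026 to 939.77 CPM in hyperoxic and 588.76 to 1510.3 CPM in normoxic Ly6Chi. Of 12 T and NK cell markers 1 was called, Il7r, which was higher. The T-cell genes Cd28 and Cd8b1 were lower (−2.95 ± 0.71 and −4.36 ± 1.10, adjusted p = 0.0192 and 0.0299), but both were absent from many libraries. Cd28 had 0 to 8.71 CPM (median 0) in hyperoxia and 0 to 32.1 CPM (median 1.09) in normoxia. It had no counts in 13 of 20 hyperoxic and 9 of 23 normoxic libraries. Cd8b1 rested on few libraries, with 0 to 9.25 CPM (median 0) in hyperoxia and 0 to 204 CPM (median 0) in normoxia. Its call ended without normoxic replicate 2 of Ly6Clo or AM or hyperoxic replicate 3 of DC (adjusted p of up to 0.0729). For 17 neutrophil markers 1 was called higher (S100a8) and 1 lower (Il1r2), and for 12 B cell and 6 erythroid markers 0 by edgeR (4 and 1 at an unadjusted p under 0.05) and limma voom, while DESeq2 called 1 B cell marker, Cd79b, lower. The part of these cells in the averaged contrast was not tested.

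A few called genes were uneven over the populations, although by edgeR no gene passed the test of that difference. Slc11a1 was at 20.1, 40.4, 74.4, 45.6 and 177 CPM in hyperoxic AM, against 2.70 to 16.9 CPM (median 10.2) in normoxic AM, without overlap, and its effect was 0.45 in DC, 2.96 in AM, 0.036 in Ly6Chi and 0.51 in Ly6Clo (adjusted p of the difference = 0.0949). Itgam, which encodes CD11b, had 0.077 in DC, 1.74 in AM, −0.033 in Ly6Chi and 0.0016 in Ly6Clo, and the matrix gene Vcan had 0.054 in DC, 1.69 in AM, −0.45 in Ly6Chi and 1.62 in Ly6Clo (adjusted p of the difference = 0.095 and 0.095). Dusp2, a phosphatase of MAP kinases, had −0.20 in DC, −1.64 in AM, 0.51 in Ly6Chi and −1.77 in Ly6Clo (adjusted p = 0.0949). In the average Slc11a1 rose by 0.99 ± 0.18 (adjusted p = 0.00158). Itgam, Vcan and Dusp2 had 0.45 ± 0.13, 0.73 ± 0.18 and −0.77 ± 0.19 (adjusted p = 0.0463, 0.023 and 0.0204), with the call of Itgam lost in 14 of 43 fits (up to 0.0863) and that of Vcan without hyperoxic replicate 3 of DC or of Ly6Chi (up to 0.0594).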

How the data were processed

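The data are raw counts, as deposited, of each Ensembl gene in 43 libraries, which were prepared from sorted lung cells with SMART-Seq v4 and Nextera XT, per the labels' protocols. The authors' counts are not normalized; per the submitters' processing notes the tools included TopHat, FastQC, Picard, SAMtools and HTSeq (0.4.1) and the build was NCBIM37, while the role of each tool and the annotation release are not given in the sources used here. The protocols name no molecular identifiers. No gene had over 4012 counts in any library, although totals reached 2403861. The highest count was 1.73 per exonic base, and 0 genes reached 2. Whether reads at the same position had been collapsed before counting was not tested. A fit chosen after seeing the data corrected the counts as if they had been. It called 411 genes (332 higher, 79 lower), 372 of them among the 378 of the main fit. Of 37991 genes 32913 received a symbol, and the remainder held 0.828% of counts.

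The analysis used R 4.3.3 and edgeR 4.0.16: filterByExpr (at least 10 counts, total of 15 or more), TMM scaling and robust quasi-likelihood F tests, with a mean for each of the 8 groups of population and oxygen and litter as an additive block. The contrast was the mean of the 4 differences of hyperoxia minus normoxia, p-values were adjusted by Benjamini-Hochberg over 12529 genes, and those under 0.05 are called. Fold changes are log2 (prior count 0.125). Their standard errors are the size of the fold change divided by the square root of F, not a separate estimate. List levels are means of log2 CPM (prior count 1). Differences between populations and between litters were tested in fits with those interactions. Alternatives used limma 3.58.1 (voom), DESeq2 1.42.0, other filters, covariates and subsets of libraries, and scripts were tested on simulated data.

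Named genes are the 15 higher and 15 lower with the smallest p and 1 sign throughout, up to 4 called genes from each of 26 pathway lists, the 5 largest changes each way among called genes of at least 5 CPM, and those with the smallest p for a difference between populations; a few were added after their values were seen (Gclm, Txnrd1, Srxn1, Txn1, Pgd, Nfe2l2, Bax, Cd274, Tap1, Cybb, Cyba, Chchd10, Ly96, Pecam1, Il1b, Npc1, Cd68 and Sqstm1). Values of some genes that the rule named are not reported here. The members and lists were chosen with earlier results of these data known, so lists are described and not tested. Replicate numbers were given in deposit order, and no libraries were paired by them. Promoter windows of 300 bases are RefSeq's, build GRCm38.p6.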

Additional observations from a re-analysis of the deposited data

Results flagged for a closer look

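If values were normal and groups independent, chance would mark about 1 in 20 groups when the most extreme library is set against the others. CPM were not transformed and the same libraries recur over the genes, so that rate is no yardstick here. Of 144 groups, 16 had such a library. Among hyperoxic libraries these were Creg1 in AM replicate 4 (749.9 CPM), Rnf128 in Ly6Clo replicate 5 (128.3 CPM), Blvrb in Ly6Chi replicate 3 (343.8 CPM), Txnip in AM replicate 4 (294.7 CPM), Gbp2 in Ly6Chi replicate 3 (996.9 CPM), Irf1 in Ly6Chi replicate 3 (557.7 CPM), Slc11a1 in Ly6Clo replicate 5 (422.7 CPM), Ptges in DC replicate 3 (213.3 CPM), and Acod1 in DC replicate 3 (352.1 CPM) and Ly6Chi replicate 3 (392 CPM). Among normoxic libraries they were Lpl in AM replicate 3 (1449 CPM), Gbp2 in DC replicate 1 (53.76 CPM), Mdm2 in Ly6Chi replicate 3 (87.36 CPM), Ptges in Ly6Chi replicate 4 (46.27 CPM) and Ly6Clo replicate 3 (41.27 CPM), and Acod1 in DC replicate 4 (3.18 CPM). Replicate 3 in hyperoxia is the 1 library of litter 100 in each population.

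The hyperoxia effect differed between litters for 749 of all genes tested and for 145 genes called in the averaged contrast (edgeR quasi-likelihood F test with Benjamini-Hochberg adjustment). Of the genes shown by library, the difference between litters passed for Cdkn1a (adjusted p = 0.03408), Esd (adjusted p = 0.02224), Blvrb (adjusted p = 0.00787), Slc7a11 (adjusted p = 0.008512), Txnip (adjusted p = 0.02773), Gbp2 (adjusted p = 0.01101), Irf1 (adjusted p = 0.00205) and Acod1 (adjusted p = 0.04505). For each of these 8 genes the size of the effect was largest in litter 100.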

How the results depend on the processing

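The averaged contrast called 378 genes, 293 higher and 85 lower. DESeq2 called 708 (559 higher, 149 lower), limma voom 221 (172 higher, 49 lower) and no filter on low counts 1033 (600 higher, 433 lower), with 4 and 524 genes differing between populations under the last 2, where the filtered edgeR fit had 0 (617 at an unadjusted p under 0.05). Without libraries under 1000000 counts 104 were called (86 higher, 18 lower), and with genes detected as a covariate 12 (9 higher, 3 lower). With the Y-linked level as a covariate 131 were lower and 3 differed between populations, and with oxygen as 1 additive term 49 were lower. Without the hyperoxic libraries of litter 100, an alternative chosen after seeing the data, 13 were called (10 higher, 3 lower) and 1 differed between populations. Without litter 100 the count was 20 (15 higher, 5 lower). Within litter 93 alone 30 were lower and within litter 100 alone 685 were called, 315 lower; litter 108 alone gave 0 by edgeR (0 higher, 0 lower, 1382 at an unadjusted p under 0.05). Without DC 73 were called (61 higher, 12 lower), without AM 41 (28 higher, 13 lower), without Ly6Chi 214 (157 higher), and without Ly6Clo 63 were called (58 higher, 5 lower). Leaving out 1 library at a time gave 161 to 557 calls, 132 to 453 higher and 28 to 137 lower, and 0 to 5 genes differing between populations. Counts moved by over 1.5 times without hyperoxic replicate 3 of DC (133 higher, 28 lower), Ly6Chi (132 higher, 30 lower) or Ly6Clo (177 higher, 38 lower), without hyperoxic replicate 5 of DC (49 lower) or replicate 4 of Ly6Chi (137 lower), and without normoxic replicate 3 (453 higher), 4 (54 lower) or 6 (48 lower) of DC or 6 of Ly6Chi (53 lower). Genes differing between populations numbered 5 without hyperoxic AM replicate 2, and 1 or 2 without hyperoxic replicate 1 of AM, 2 of Ly6Chi or 5 of Ly6Clo or normoxic replicate 4 of AM or 5 of Ly6Clo.

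No replicate block (no litter term) gave 138 calls (113 higher, 25 lower). With litter by oxygen as a random effect in limma voom 17 were called (14 higher, 3 lower), and 3 hyperoxic against 3 normoxic litter means with litter as replicate block gave 0 in either direction (limma, 737 at an unadjusted p under 0.05). All 378 genes kept their sign in the litter means. Those means come from the same libraries that picked the genes, so the kept sign is no separate support. Replicate numbers come from the order of the deposit, so no pairing other than by litter was made.

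Of 7618 values of named genes under these settings 24 reversed. In litter 93 alone the log2 fold changes were −1.88 for Inhba, −0.91 for Tgtp2, −0.16 for Gbp2, −0.052 for Slc2a1, −0.10 for Mmp14, −0.21 for Clec4e, −0.40 for Zbp1, −0.0098 for Mvd, −0.072 for Itgax, 0.62 for Siglecf, −0.21 for Ly6c2, −0.094 for Cd274, −0.0020 for Tap1 and −1.22 for Ccl5. In litter 108 alone they were −0.071 for Fth1, −0.13 for Ctss, −0.059 for Cox6a1, −0.072 for Rps14, −0.012 for B2m, −0.12 for Cyba and −0.046 for Cd68. Siglecf had 0.081 without litter 108, and Ly6c2 −0.10 without litter 100 and −0.069 without its hyperoxic libraries. The cause was not tested. No named gene reversed when 1 library was left out. Depth limits low genes such as Ankrd37 in AM, where hyperoxic counts ran from 0 to 1.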
